A study of Homo sapiens with 12 samples.

Results

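Newly made DNA was mapped in 3 human cell lines, and 712 of the 13567 mapped loci were found in H1 embryonic stem cells and in Saos-2 osteosarcoma cells but not in IMR90 lung fibroblasts. These 712 loci were selected on the deposited lists of bromodeoxyuridine (BrdU) regions of the 3 lines. Regions that overlapped by at least 1 bp were joined into loci, and a locus was kept when it held H1 and Saos-2 regions and no IMR90 region. Presence in these lists, and the widths and scores taken from them, are therefore given as a description. The loci made up 14.4% of the 4949 loci with an H1 region and 11.4% of the 6230 loci with a Saos-2 region.

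The H1 cells, grown in mTESR1 at passage 35 to 45, were transfected with a non-targeting siRNA (the control) and given 10 µM HA 1077 and were collected after 72 h. A further H1 culture received siRNAs against EP300 and CREBBP, again with HA 1077. IMR90 cells, primary fibroblasts at passage 7 to 12, and Saos-2 cells were grown in serum-supplemented DMEM without siRNA. H3K18ac was measured in H1 without siRNA and in IMR90, from 5000000 cells each, and was not analysed here in Saos-2. Each group had 1 library, which gives no replicate error, so no test between groups was possible and no p-value is given. A difference between H1 control and another line thus cannot be told apart from a difference in siRNA and HA 1077 treatment. No RNA was measured, so the 3 lines could not be checked against marker genes, and the siRNA effect on EP300 and CREBBP was not analysed here.

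BrdU is a thymidine analogue that cells build into DNA while copying it, and an antibody against it pulls down DNA made during the labelling. Replication of human chromosomes starts at many sites, and cell types differ in the sites and in the time in S phase at which they are used. H3K18ac is an acetylated lysine in the tail of histone H3, set mainly by the related enzymes p300 (EP300) and CBP (CREBBP) and known from active promoters and enhancers.

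The loci were compact. Their width ranged from 100 bp, the size of 1 window of the authors' grid, to 2900 bp, with a median of 500 bp and quartiles of 300 and 700 bp. In all they covered 390.9 kb of the hg19 genome. Most of them, 679, paired 1 H1 region with 1 Saos-2 region. Another 26 held 2 H1 regions and 5 held 3 H1 regions with a single Saos-2 region, and 2 held 2 Saos-2 regions with a single H1 region.

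Within a locus the H1 region usually lay inside a wider Saos-2 region. This nesting was found at 410 loci (57.6%), the reverse at 104, an identical extent at 77 and a staggered overlap at 121. Saos-2 regions were wider in general, with a median of 200 bp over their whole list against 100 bp in H1 control, and of 600 against 400 bp at loci of all 3 lines. At the 712 loci the Saos-2 region was the wider one at 466 and the H1 region at 123. The part common to both lines spanned 187 kb, which was 83.8% of the H1 length but 52.7% of the Saos-2 length. The centres of the 2 regions lay within 100 bp of each other at 548 loci (77.0%) and coincided at 247. At 10 loci they were more than 500 bp apart.

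The authors gave each region a whole-number score whose meaning is not stated, so it was read only as a percentile of the region's own list, with 100 for the highest. The median locus stood at percentile 78.2 in H1 control (22.5 to 99.9) and at 78.0 in Saos-2 (3.00 to 99.9). Loci found in all 3 lines, of which there were 926, stood higher, at medians of 86.7 and 84.9. Scores of the 2 lines rose together over the 712 loci, with a Spearman correlation of 0.506 across loci. Over the 241 loci of at most 300 bp it was 0.294. The loci share 2 libraries and the score grows with width, so these correlations are descriptions only. At 210 loci the percentile was above 80 in both lines.

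**Figure D1:**
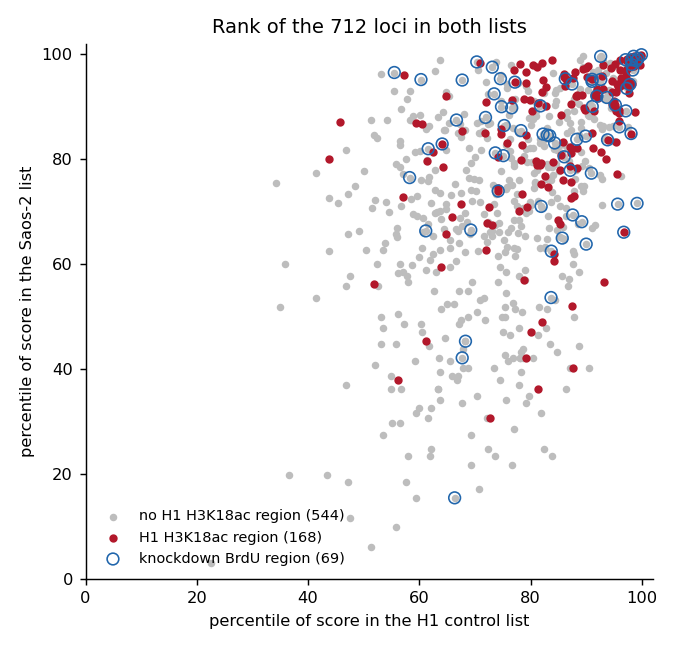
Each point is 1 of the 712 loci, placed by the percentile of its highest-scoring region in the H1 control list (x) and in the Saos-2 list (y); red points overlap H3K18ac in H1 and blue rings mark an overlapping H1 knockdown BrdU region. The 168 loci with H3K18ac crowd toward the upper right, and loci with a low percentile in H1 are few.

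The locus of highest mean percentile lay on chromosome 19 at 35787701 to 35790000. Its H1 region ranked 6 in the H1 control list with a score of 5378, and its Saos-2 region ranked 4 in its own list with a score of 3522. The nearest IMR90 region lay 191300 bp away. H3K18ac in H1 occupied a single window of it, at 35788501 to 35788600, and after knockdown of EP300 and CREBBP a BrdU region of 200 bp was called at 35789601 to 35789800, inside the control region and outside the mark.

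The second locus in this order, on chromosome 3 at 194047301 to 194048900, ranked 11 in H1 and 20 in Saos-2. H3K18ac covered 1400 of its 1600 bp, in a region at 194047301 to 194048700 that ranked 132 in its list, and no knockdown region was called there. An IMR90 region ranked 52 in its list lay 23900 bp away. The next locus in order, on chromosome 8, overlapped neither H3K18ac nor a knockdown region.

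The widest locus, 2900 bp on chromosome 10 at 135150701 to 135153600, held 3 H1 regions and 1 Saos-2 region, with ranks of 36 in H1 and 48 in Saos-2. It contained the highest-scoring region of the whole knockdown list, at 135151301 to 135152000, and a single H3K18ac window at 135151501 to 135151600 inside that region. Both H3K18ac and a knockdown region were also found on chromosome 21 at 42364701 to 42366200. The same was true of a locus on chromosome 2 at 106552301 to 106553500, where the H1 and Saos-2 regions had the same ends. H3K18ac without a knockdown region was found on chromosome 15 at 28349801 to 28351400, and likewise on chromosome 16 at 47888001 to 47889000. The locus on chromosome 14 at 95355801 to 95357100 had neither. Just below these, the locus on chromosome 7 at 128527501 to 128528700 had 2 knockdown regions and no H3K18ac, and lay 1900 bp from an IMR90 region. Of the next widest loci, that on chromosome 22 at 48978101 to 48980600 had both and that on chromosome 13 at 36335501 to 36337900 had neither. Loci of high rank in both lines were thus found with both, with either and with neither of them.

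H3K18ac of H1, which the choice of loci did not use, overlapped 168 of the 712 loci, or 23.6% (Wilson 95% interval 20.6 to 26.9). Over all 13567 loci the share was 8.33%. Intervals here cover the counting error of loci only, and neighbouring loci are not independent. The share was below that of loci found in all 3 lines (281 of 926, difference -6.75 points, Newcombe interval -11.0 to -2.41). It was above that of loci in H1 alone (2.69%, 20.9 points, 17.9 to 24.2) and in Saos-2 alone (6.78%, 16.8 points, 13.7 to 20.2). Against loci in IMR90 and Saos-2 only (101 of 533) the difference was 4.65 points, with an interval that barely cleared 0 (0.0204 to 9.14). It was 0.165 points (-4.53 to 4.83) when regions up to 10 kb apart were joined.

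The loci that H1 shared with IMR90 only were few, and H3K18ac of H1 was rare there. It overlapped 7 of those 148 loci (4.73%, 2.31 to 9.44), 18.9 points below the loci shared with Saos-2 only (13.3 to 22.9). Loci of IMR90 and Saos-2 only, which lack an H1 BrdU region, carried the H1 mark at 18.9% (15.9 to 22.5). The mark of H1 was thus more frequent at loci that IMR90 shared with Saos-2 than at loci it shared with H1. The low share in H1 and IMR90 only depended on how loci were built. When regions up to 10 kb apart were joined, H3K18ac overlapped 30.1% of the loci in IMR90 and Saos-2 only, 30.3% of the loci in H1 and Saos-2 only and 27.4% of those in H1 and IMR90 only. The last 2 differed by 2.84 points (-3.62 to 8.84). Joining had also widened the latter to a median of 1600 bp, against 600 bp for the former. In the upper 50% of each BrdU list by score the 2 shares were 26.3% and 8.82%.

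**Figure D2:**
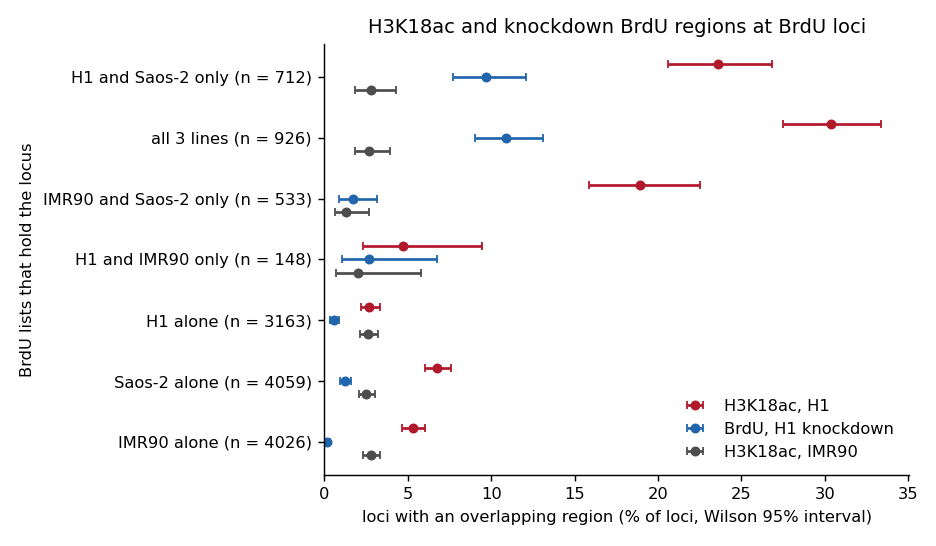
Share of loci (x, percent, with Wilson 95% intervals) that overlap H3K18ac in H1 (red), BrdU in the H1 knockdown (blue) or H3K18ac in IMR90 (grey), for each combination of BrdU lists (y). The 712 loci in H1 and Saos-2 only have the second highest share of H1 H3K18ac and a knockdown share close to that of loci in all 3 lines, while IMR90 H3K18ac stays low in all 7 combinations.

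Wider loci overlapped the mark more often, and width differed between the sets. The share in H1 and Saos-2 only was 1 of 39 at 100 bp, 11 of 94 at 200 bp, 34 of 208 at 300 to 400 bp, 62 of 219 at 500 to 700 bp and 60 of 152 (39.5%) at 800 bp or more. Loci of all 3 lines stood at 28.1% at 500 to 700 bp and at 37.5% at 800 bp or more, against 28.3% and 39.5%. Weighted to the widths of the 712 loci, the shares were 24.7% for all 3 lines, 20.9% for IMR90 and Saos-2 only, 12.8% for Saos-2 alone and 4.87% for H1 and IMR90 only. The gap to loci of all 3 lines was therefore small at equal width, and that to H1 and IMR90 only remained, over 148 loci. Few of these were wide: the mark was at 1 of 20 at 500 to 700 bp and 0 of 14 at 800 bp or more.

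At equal H1 score the loci in H1 and Saos-2 only and those of all 3 lines were close in the 2 highest of 5 score groups. Divided into 5 groups by H1 control score, the H1 and Saos-2 loci numbered 0, 5, 90, 296 and 321 from the lowest group to the highest. In the highest group 36.8% of them overlapped H3K18ac against 37.0% of the 632 loci of all 3 lines, a difference of -0.265 points (-6.64 to 6.27). In the group below, the shares were 14.5% and 15.8%, and in the middle group 7.78% of 90 loci and 18.2% of 33. In the group just below the highest, 6.10% of the 82 loci in H1 and IMR90 only overlapped the mark. The 294 loci in H1 alone stood at 7.82% in that group. The H1 and Saos-2 loci lay 8.43 (0.223 to 14.1) and 6.70 points (1.61 to 11.8) higher there. In this group, loci with H1 and Saos-2 regions thus overlapped the mark more often than H1 loci without a Saos-2 region, in IMR90 or not. The overlap was counted over the whole locus, including the Saos-2 region, and width was not matched within score groups. Of the 168 marked loci in H1 and Saos-2 only, 40 had the mark in the Saos-2 region only. In the highest group only 22 loci were in H1 alone and 13 in H1 and IMR90 only, of which 3 and 2 had the mark. The H1 and Saos-2 loci lay 23.1 (2.78 to 33.5) and 21.4 points (-5.95 to 33.7) higher there. Weighted to the H1 score groups of the 712 loci, the share was 9.75% in H1 alone and 9.47% in H1 and IMR90 only, against 23.6%.

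At equal Saos-2 score, a grouping added after seeing the data, the loci in H1 and Saos-2 only tended to lie lower. In the highest of 5 Saos-2 score groups 35.9% of them overlapped H3K18ac against 37.3% of loci of all 3 lines (-1.46 points, -7.90 to 5.14) and 33.0% of loci in IMR90 and Saos-2 only (2.82 points, -7.49 to 12.4). In the next group they stood at 16.1%, below the 23.7% of all 3 lines (-7.63 points, -15.0 to -0.214), and IMR90 and Saos-2 only stood at 20.8% (-4.72 points, -12.6 to 2.83). Loci in Saos-2 alone stood at 21.3% and 10.8% in these groups, or 14.6 (7.15 to 21.6) and 5.28 points lower (0.313 to 11.0). Weighted to the Saos-2 score groups of the 712 loci, the shares were 27.9% for all 3 lines, 24.4% for IMR90 and Saos-2 only and 14.6% for Saos-2 alone, against 23.6%. How close the 712 loci came to the loci of all 3 lines thus depended on the list used for the score.

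**Figure D3:**
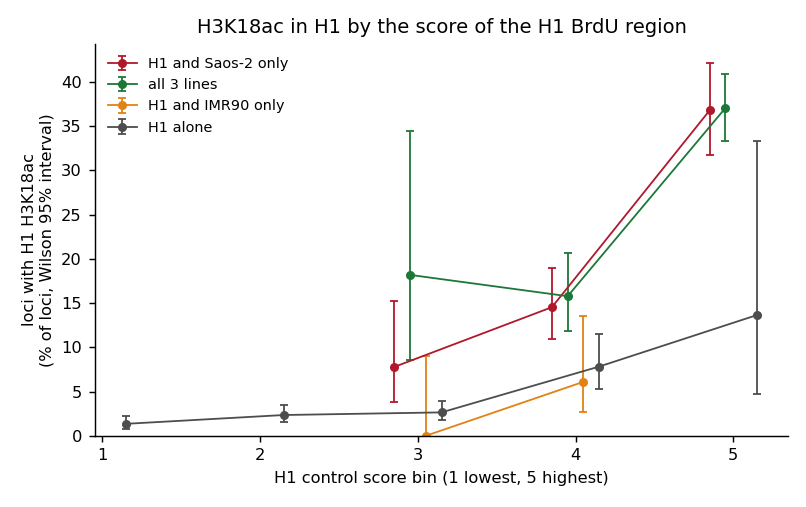
Share of loci overlapping H3K18ac in H1 (y, percent, with Wilson 95% intervals) by the score group of the H1 control region (x, from 1 lowest to 5 highest), for 4 sets of loci. Sets with fewer than 20 loci in a group are not drawn. Red (H1 and Saos-2 only) and green (all 3 lines) meet in the 2 highest groups, and grey (H1 alone) lies below them.

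The acetylated windows sat on the BrdU regions themselves. In the 100 bp window at the centre of the H1 region, H3K18ac of H1 was present at 74 of 712 loci (10.4%, 8.36 to 12.9). The mean share was 6.42% within 500 bp of the centre, 2.18% at 600 to 1000 bp and 1.50% at 2100 to 5000 bp. At loci of all 3 lines the centre share was 12.6%, a difference of -2.24 points (-5.31 to 0.919), and at loci of H1 alone 2.43%. Within a locus the mark favoured the part both lines had in common. It covered 221 of 1870 such windows (11.8%), 130 of 1677 windows with Saos-2 BrdU only (7.75%) and 24 of 362 windows with H1 BrdU only (6.63%). The order was the same at loci of all 3 lines, with 13.7%, 8.74% and 5.98%. Being common to both lines was not separated from closeness to the centre. These windows are pieces of the same loci, so the shares carry no interval.

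Of the 168 loci with the mark, 116 had it in both the H1 and the Saos-2 region, 40 in the Saos-2 region only and 12 in the H1 region only. The H3K18ac regions had a median width of 200 bp, against 100 bp over their whole list, and at 122 loci they lay wholly inside the locus. Their median percentile in the H3K18ac list was 73.8, and 67 loci had a mark from the highest of 5 score groups of that list. The loci with the mark were wider (median 600 against 400 bp) and ranked higher, at a median percentile of 87.0 against 75.7 in H1 and of 89.4 against 74.0 in Saos-2. Loci with a staggered overlap and loci with H1 nested in Saos-2 carried the mark at 27.3% and 26.3%, those with Saos-2 nested in H1 at 19.2%, and the 77 of identical extent, with a median of 100 bp, at 9.09%.

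The H3K18ac regions at these loci were largely absent from IMR90. Of 178 H1 H3K18ac regions over the 712 loci, 7 (3.93%) also overlapped an IMR90 H3K18ac region, against 19.0% of the other 65768 H1 regions, a difference of -15.1 points (-17.1 to -11.1). Strong H1 H3K18ac regions were otherwise the ones most often shared: when the other regions were weighted to the score groups of the 178, 28.9% were in IMR90, and when weighted to their widths, 22.4%. In the highest score group, 5 of 67 regions at the loci were in IMR90, against 51.8% elsewhere. The low share was not particular to these loci. At loci of all 3 lines it was 10 of 332 (3.01%) and at loci of IMR90 and Saos-2 only 3 of 105 (2.86%), although both have a BrdU region in IMR90.

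H3K18ac measured in IMR90 itself overlapped 20 of the 712 loci (2.81%, 1.83 to 4.30), close to the 2.59% over all loci. The difference from every other combination of lists had an interval that included 0, the widest against H1 and IMR90 only (0.782 points, -3.11 to 2.78). Around the H1 regions its profile had no peak, with 1.69% at the centre window, 1.89% within 500 bp and 1.91% at 2100 to 5000 bp. At 7 loci the mark was present in both lines. The highest of these in rank was on chromosome 7 at 47513901 to 47514700, with H3K18ac at 47514101 to 47514500 in H1 and at 47513801 to 47514600 in IMR90. Among the loci with IMR90 H3K18ac, the 2 highest in rank had it without the H1 mark. On chromosome 10 at 47058601 to 47059700 the IMR90 mark spanned 1600 bp, and on chromosome 13 at 22544801 to 22546000 it spanned 1200 bp.

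**Figure D4:**
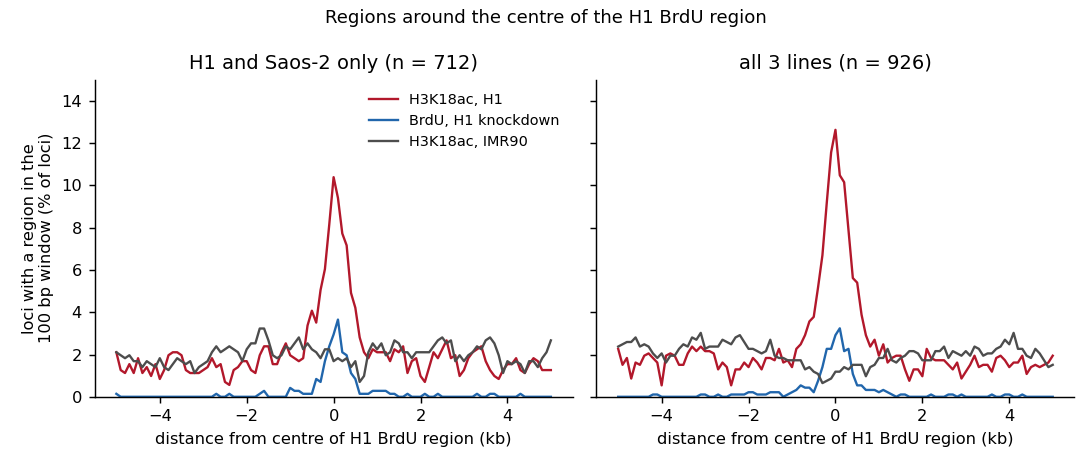
Share of loci with a region in each 100 bp window (y, percent) by distance from the centre of the H1 BrdU region (x, kb), for the 712 loci in H1 and Saos-2 only (left) and the 926 loci in all 3 lines (right). H3K18ac of H1 (red) peaks at the centre at 10.4% and 12.6%, knockdown BrdU (blue) reaches 2.95% and 2.92% there, and H3K18ac of IMR90 (grey) shows no peak.

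BrdU regions called after knockdown of EP300 and CREBBP overlapped 69 of the 712 loci, or 9.69% (7.73 to 12.1), against 1.89% over all loci. Loci of all 3 lines stood at 10.9%, a difference of -1.22 points (-4.14 to 1.81). Loci of H1 and IMR90 only stood at 2.70%, or 6.99 points lower (2.50 to 9.89). Loci in H1 alone stood at 0.569%, or 9.12 points lower (7.13 to 11.5). Weighted to the H1 score groups of the 712 loci, the share in H1 alone was 4.69%. In the group just below the highest H1 score it was 6.75 points lower (3.56 to 10.4). In the highest group, with only 22 loci in H1 alone, it was 4.62 points lower (-14.4 to 12.4). At equal H1 score the loci with a Saos-2 partner again ran together, with 13.7% in the highest score group for H1 and Saos-2 only and 13.4% for all 3 lines, a difference of 0.258 points (-4.15 to 5.11). The share rose with width, from 9 of 208 at 300 to 400 bp to 22 of 219 at 500 to 700 bp and 35 of 152 (23.0%, 17.1 to 30.3) at 800 bp or more. The last value for loci of all 3 lines was 15.7% (12.6 to 19.5).

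The knockdown regions at the loci were mostly narrower than the control regions there, and the knockdown list as a whole was narrower too. A knockdown region was counted when it overlapped the locus, which did not require an overlap with the control region. That list covered 0.211 Mb with 85.8% of its regions at 100 bp, against 1.08 Mb and 62.9% in the control. Over the 69 loci the control regions covered 37.3 kb and the knockdown regions 11.6 kb, or 31.1% of that length. Of the 116 knockdown windows, 32 lay where only Saos-2 had BrdU, so this is not the part of the control length found again. The knockdown region was narrower than the control region at 52 loci, equal at 11 and wider at 6, and 40 of the 73 knockdown regions (54.8%) were 100 bp wide, a smaller share than in their list. Knockdown BrdU covered 75 of the 1870 windows where both H1 control and Saos-2 had BrdU (4.01%), 32 of the 1677 where Saos-2 alone had it (1.91%) and 9 of the 362 where H1 control alone had it (2.49%). The knockdown regions at the loci nevertheless ranked high in their list, with a median percentile of 92.6. They made up 4.16% of the list and supplied 27 of its 100 highest. High rank was not particular to them, since knockdown regions that overlapped both Saos-2 and IMR90 had a median percentile of 95.1.

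Without allowance for width or score, loci with and without H3K18ac were found after the knockdown at like rates. A knockdown region overlapped 14 of the 168 loci with the mark (8.33%, 5.03 to 13.5) and 55 of the 544 loci without it (10.1%, 7.85 to 12.9), a difference of -1.78 points (-6.12 to 3.86). The interval leaves room for a difference of several points either way. Loci with the mark were wider (median 600 against 400 bp) and ranked higher, and the knockdown share rose with width. The rates at equal width may therefore differ and were not compared. The mark was read in H1 cells without siRNA and was not analysed here in the knockdown culture. Neither H3K18ac of either line nor a knockdown region was found at 479 loci.

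Seen from the knockdown list, membership in the other lines went with presence in the control. Of the 160 knockdown regions that overlapped a Saos-2 region and no IMR90 region, 73 were also in H1 control (45.6%, 38.1 to 53.4). Of the 69 that overlapped both lines, 53 were (76.8%, 65.6 to 85.2), and of the 1512 that overlapped neither, 28 were (1.85%, 1.28 to 2.66). Only 14 overlapped IMR90 and not Saos-2, of which 5 were (35.7%, 16.3 to 61.2). The groups also differed in score, with median percentiles of 91.3 (Saos-2, not IMR90), 95.1 (both), 87.5 (IMR90, not Saos-2) and 44.6 (neither). Membership and score were not separated. With the knockdown list in place of the control list, the rule that chose the loci gave 112 loci. Of these, 62 overlapped one of the 712, and 15.2% (9.70 to 23.0) overlapped H3K18ac of H1.

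IMR90 BrdU regions lay near some of the loci without overlapping them. At 23 loci an IMR90 region touched the locus end to end, at 54 (7.58%, 5.86 to 9.77) it lay within 1 kb and at 140 (19.7%, 16.9 to 22.7) within 10 kb. Over all 7934 loci without an IMR90 region, 16.1% had one within 10 kb. The share was 12.4% for loci of H1 alone, 7.27 points lower (4.27 to 10.5), and 18.3% for loci of Saos-2 alone, a difference of 1.33 points (-1.68 to 4.62). The IMR90 regions within 1 kb of a locus numbered 58 and had a median percentile of 64.4 in their list (14.4 to 98.2). The median distance was 84350 bp, and 50 loci had no IMR90 region within 1 Mb. A region absent from the IMR90 list may have lain under the authors' threshold, since sequencing depth is unknown and the lists hold no value below it.

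The loci closest to failing the rule touched an IMR90 region. The highest in rank lay on chromosome 9 at 140843101 to 140843900, next to an IMR90 region at 140843901 to 140844000. A further one lay on chromosome 13 at 25256001 to 25256500, next to 25255901 to 25256000. Another, on chromosome 21 at 44887601 to 44888300, adjoined an IMR90 region at 44888301 to 44888400. Near the other edge of the rule, 319 loci had only 100 bp common to H1 and Saos-2, among them 67 whose regions were both wider than that. The common window was the smallest share of the shorter region at 2 loci. One was on chromosome 2 at 1658801 to 1659900, where an H1 region of 400 bp and a Saos-2 region of 800 bp met in a single window. The other was on chromosome 22 at 37468001 to 37468800, with regions of 500 and 400 bp, followed by chromosome 16 at 52788001 to 52788900 with regions of 300 and 700 bp.

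Just outside the rule, 145 pairs of an H1 region from a locus in H1 alone and a Saos-2 region touched without overlapping. In 112 of these pairs the Saos-2 region was also found in that line alone. The pair of highest mean percentile lay on chromosome 10, with H1 at 47058501 to 47058600 and Saos-2 at 47058601 to 47059700. It was followed by a pair on chromosome 16, with H1 at 6822501 to 6822700 and Saos-2 at 6822701 to 6823900. The next was on chromosome 1, with H1 at 31859501 to 31859700 and Saos-2 at 31859701 to 31860600. The Saos-2 regions on chromosomes 10 and 1 belong to one of the 712 loci each, through another H1 region.

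The loci were spread unevenly over the chromosomes. Of the 4819 autosomal loci with an H1 region, 703 (14.6%) were in Saos-2 and not in IMR90. The share was lowest on chromosome 3, at 12 of 242 (4.96%, 2.86 to 8.47), followed by chromosome 11 (7.85%, 5.08 to 11.9). It was highest on chromosome 21, at 29 of 107 (27.1%, 19.6 to 36.2), followed by chromosome 22 (22.4%, 16.5 to 29.6), chromosome 7 (21.1%, 16.7 to 26.2) and chromosome 19 (19.8%, 15.2 to 25.4). Chromosomes 3 and 21 were picked as the lowest and the highest autosome, so the distance between their intervals is not a test of unevenness. Chromosome 6 held 46 of these loci and 26 loci of all 3 lines, the highest ratio of any autosome, while chromosome 3 held 12 and 30, the lowest. As a share of Saos-2 loci the order differed. Chromosomes 13 (28 of 150 loci) and 7 (60 of 333 loci) stood highest, chromosome 21 at 14.2% and chromosome 19 at 8.74%, and chromosome 3 was again the lowest at 5.88%, with 11.4% over all chromosomes. Chromosome 3 was thus low and chromosome 7 high by either measure. Copy number was not analysed here, and its part in these shares was not tested.

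**Figure D5:**
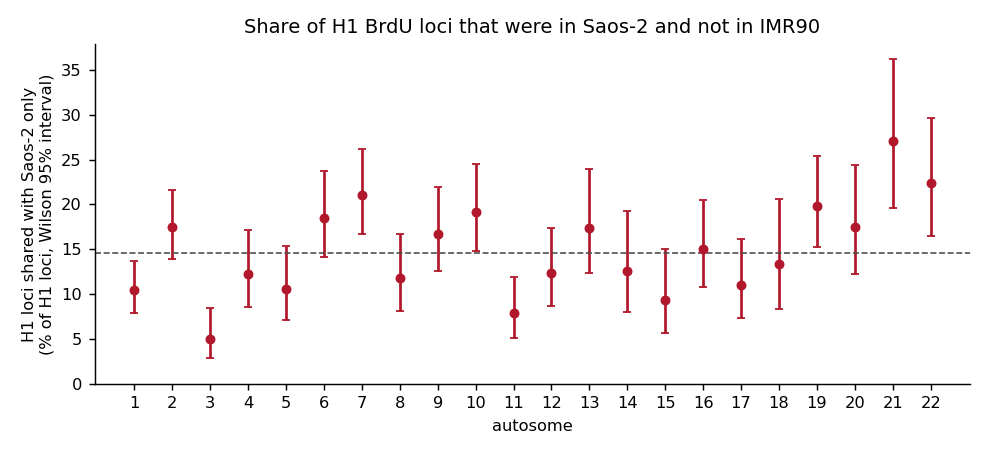
Share of the H1 loci of each autosome (x) that were found in Saos-2 and not in IMR90 (y, percent, with Wilson 95% intervals); the dashed line marks the 14.6% over all autosomes. Chromosome 3 lies lowest at 4.96% and chromosome 21 highest at 27.1%.

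The loci lay near the ends of the mapped chromosomes more often than loci of H1 alone, and less often than loci of IMR90 and Saos-2 only. Of the 703 autosomal loci, 242 (34.4%, 31.0 to 38.0) lay within 5 Mb of the outermost region of any list on their chromosome, against 27.4% of all 13217 autosomal loci. The share was 37.4% for loci of all 3 lines, a difference of -2.97 points (-7.63 to 1.75), and 49.2% for loci of IMR90 and Saos-2 only, or 14.7 points higher (9.18 to 20.2). It was 31.7% for loci of Saos-2 alone, a difference of 2.70 points (-1.02 to 6.57), and 39.2% for loci of H1 and IMR90 only (-4.77 points, -13.5 to 3.55). It was 14.9% for loci of H1 alone, or 19.5 points lower (15.9 to 23.3). On chromosomes whose short arm is unmapped, the outermost region on that side is near the centromere, so the measure is not the distance to a telomere.

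Some of the loci lay in local groups. Chains in which each locus was within 100 kb of the next held 182 loci, as 65 pairs and 16 chains of 3 or more, and 530 loci stood alone. Of the autosomal loci, 25.9% had a neighbour of their own kind within 100 kb, against 34.4% of loci of all 3 lines and 31.6% of loci in IMR90 and Saos-2 only, so grouping was no more frequent than in those sets. The longest chain, of 5 loci on chromosome 8, contained no locus of all 3 lines, no H3K18ac and no knockdown region. Another 4 lay on chromosome 4 between 3470201 and 3595700, and 4 on chromosome 7 between 157564501 and 157665000, 2 of them with H3K18ac. The tightest chains of 3 were on chromosome 6 between 168052001 and 168072900, without H3K18ac, and on chromosome 21 between 46752201 and 46774000, with H3K18ac at 1 locus and a knockdown region at 1.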

How the data were processed

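The deposited files are 6 lists of regions on the genome build hg19. Reads were aligned with Bowtie 0.12.7, per the submitters' processing notes. What called the regions, at which threshold, how inputs were used and how long BrdU was given is not stated in the sources used here. Each region carries a score, a whole number set by the authors, whose meaning no file header states. The BrdU pull-downs started from 4 µg of labelled DNA and 2 µg of antibody, per the labels. The 6 input samples were not analysed here.

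Overlaps (at least 1 bp), gaps, Wilson and Newcombe 95% intervals and percentiles were computed in Python 3.11.15 (pandas 2.3.3, scipy 1.17.1, numpy 2.4.6) and drawn with matplotlib 3.10.9. The code was tested on simulated data. Weighted shares average the shares in bins of width or H1 score, with the 712 loci as weights. A locus takes its highest-scoring region in each list. Loci were named by fixed rules: highest mean percentile (10), highest with a knockdown region (5), with both marks (5), widest (3), nearest to either edge of the rule (3 each), and highest with IMR90 H3K18ac (3). The loci, lists and comparisons were chosen with earlier results of these data known. Alternatives were a 50% overlap, the upper 50% of lists, joining within 10 kb, autosomes, a 10 kb distance from IMR90, lists of equal number, marks within 1 kb and short loci. Gene annotation and sequence were not used here.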

Additional observations from a re-analysis of the deposited data

How the results depend on the processing

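The number of loci stayed within 1.5 times 712 under all 7 alternatives: 704 with a 50% overlap, 600 in the upper 50% of lists, 786 with regions joined within 10 kb, 703 on autosomes, 572 without an IMR90 region within 10 kb, 703 in lists of equal number and 797 when touching regions were joined, a setting chosen after seeing the data. The settings of autosomes and of distance from IMR90 keep a part of the 712 by construction, and the 50% overlap also gave no locus outside them. Their counts are thus no separate check. Joining within 10 kb changed the loci most, since 535 of its 786 loci overlapped one of the 712.

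That setting moved the share with H3K18ac of H1 from 23.6% to 30.3% and that with H3K18ac of IMR90 from 2.81% to 5.47%. Counting regions within 1 kb, which by construction can only add loci, gave 39.3% for H3K18ac of H1, 8.15% for H3K18ac of IMR90 and 12.5% for knockdown BrdU. Loci of at most 300 bp gave 10.4% for H3K18ac of H1 and 2.07% for knockdown BrdU. The score grows with width, and the parts of width and score in these lower shares were not separated. The share with an IMR90 region within 10 kb, 19.7%, became 14.9% with the upper 50% of the IMR90 list and 7.58% at 1 kb, by construction. Other settings left each share inside its interval, at 20.7% to 26.3% for H3K18ac of H1.

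No paired analysis was possible because each group has 1 library, which also leaves no replicate to omit. Sequencing depth is unknown. The planned use of sequence and annotation was not run.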
